A study of Rattus norvegicus with 3 samples.

Results

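Genes of the brain endothelium and the blood-brain barrier were followed on 3 expression arrays of rat brainstem. The set holds 10 genes, chosen by symbol: Cldn5, Pecam1, Cdh5, Eng, Emcn, Cd93, Slc2a1, Tek, Flt1 and Kdr. Of these, 9 had a probe set with that single symbol in the platform annotation, out of 14217 genes named in this way; Cdh5 had none there and is named only. The 9 genes were read by 13 probe sets, and each gene is given by its brightest one. The groups are hand acupuncture (labelled Hand Acu), TBI (traumatic brain injury) and Sham, with 1 array each. Brainstem was taken 1 h after modelling, and the design text gives 5 animals whose tissue was mixed, read here as 1 pool per group. Whether the rats given acupuncture had also been injured, where needles were placed, how the injury was made, and the strain, sex and age are not given in the sources used here.

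Endothelial cells line the vessels of the brain, and the barrier they form rests on tight junctions that seal the gaps between cells, on carriers that take nutrients across, and on a low rate of vesicle traffic. Claudin-5, the product of Cldn5, is the main claudin of these junctions, and GLUT1, the product of Slc2a1, carries glucose from blood to brain. VEGF acts through the receptors encoded by Kdr and Flt1, and angiopoietins act through the receptor encoded by Tek; both pathways set vessel growth and permeability.

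Values are log2 signals of the MAS5 method, in which 1 unit is a doubling. A floor was set at the median of all non-control probe sets, 7.44, because MAS5 values near background are erratic. All 9 genes lay above it in their mean over the 3 arrays, by 0.15 for Eng up to 3.83 for Slc2a1, and 9241 genes of the whole table did. The median signal of an array was between 174.1 and 174.7. The 3′ to 5′ ratio of beta-actin, which is higher where RNA is less intact, was 6.69 in the hand acupuncture pool, 6.37 in the TBI pool and 5.58 in the sham pool. As a check of the tissue, with 5 markers picked after the data were seen, of which 3 had a probe set, Chat, which makes acetylcholine in motor nuclei, had a log2 signal of 7.99, 7.96 and 7.71 on the hand acupuncture, TBI and sham arrays, and lay above the floor on each. Hoxa5, a hindbrain homeobox gene, had 8.34, 8.57 and 7.35, so that its sham value lay under the floor and stood apart from the other 2. Slc6a5, the glycine transporter of brainstem neurons, was below the floor at 2.11, 3.02 and 3.14. With 1 array per group there is no replicate error, so differences are described and not tested. Each difference of the 9 genes is set beside the SD of that difference over all genes above the floor whose mean lies within 0.5 log2 units, called genes of like signal. For the genes of the lists further below this was not done. In bulk tissue, fewer endothelial cells and less RNA per cell cannot be told apart.

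The 9 genes did not move as a block. Cldn5 was high on the sham array, Cd93 was high on the TBI array, Emcn was low on the TBI array, and Eng was low on the hand acupuncture array. The spread of these 4 genes over the 3 arrays ran from 0.51 to 0.90 log2 units, whereas that of the other 5, Slc2a1, Pecam1, Tek, Kdr and Flt1, ran from 0.05 to 0.19. Over all 9241 genes the median spread was 0.18.

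**Figure D1:**
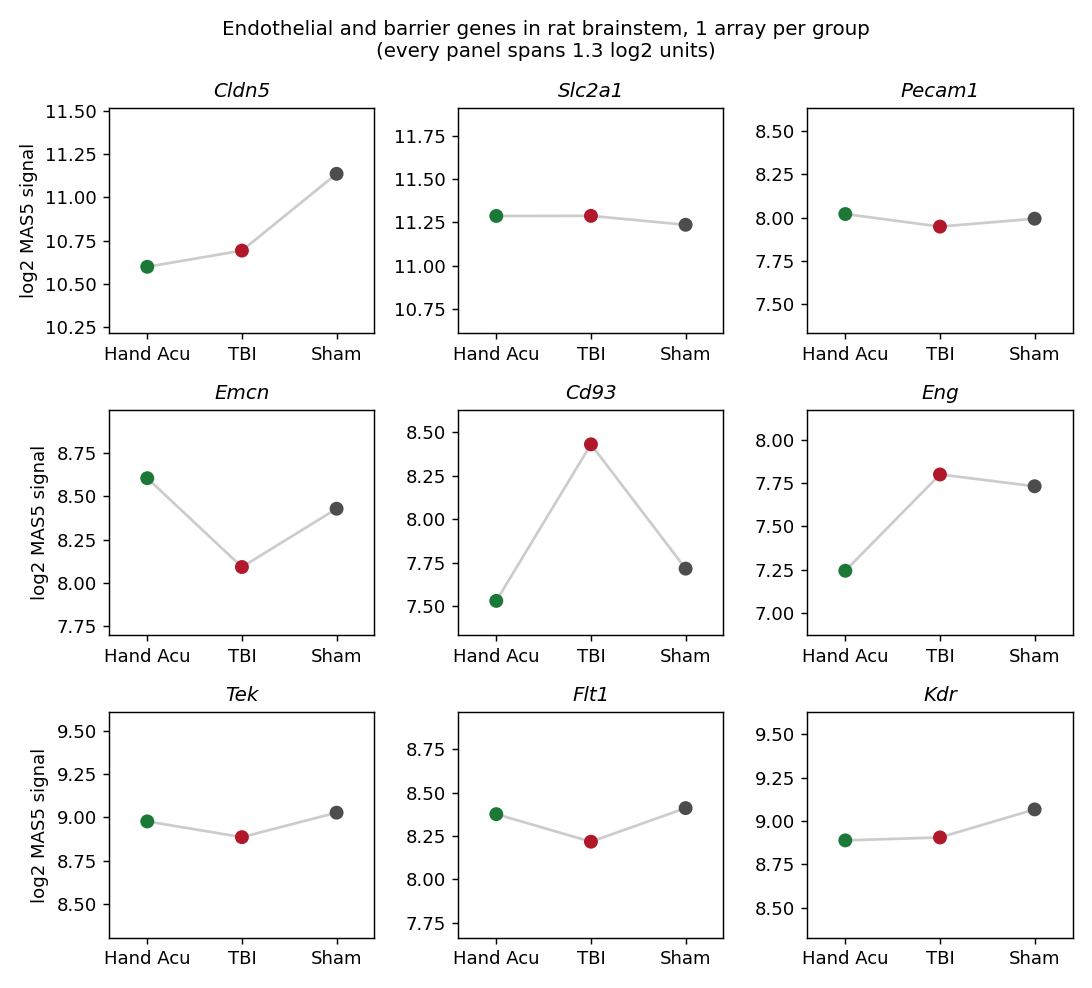
Log2 MAS5 signal (y axis) of the 9 measured genes on the hand acupuncture, TBI and sham arrays (x axis), with 1 point per array and every panel spanning the same range. Cldn5 has its highest point on the sham array at 11.14, Cd93 on the TBI array at 8.43, Eng its lowest on the hand acupuncture array at 7.24 and Emcn its lowest on the TBI array at 8.09; the other 5 panels are nearly flat.

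The transcript of the main sealing protein of the junctions was lower on both other arrays than on the sham array. Cldn5 (probe set 1374104_at) had a log2 signal of 10.60 in the hand acupuncture pool, 10.69 in the TBI pool and 11.14 in the sham pool. The sham array stood apart, and the other arrays lay 0.09 from each other. Cldn5 was thus 1.36-fold lower on the TBI array than on the sham array (log2 difference −0.44, against an SD of 0.15 over 1571 genes of like signal, of which 1.85% were at least as far apart). On the hand acupuncture array it was 1.45-fold lower than on the sham array (−0.54, SD of genes of like signal 0.15, with 0.764% at least as far apart). Both of these differences subtract the same sham array, so they are not independent of each other. Hand acupuncture minus TBI was −0.09, within the SD of 0.12 of genes of like signal. The beta-actin ratio given above ran in the opposite order of the arrays to Cldn5, whereas the 3′ to 5′ ratio of Gapdh, at 1.2797 in the hand acupuncture pool, 1.2034 in the TBI pool and 1.2497 in the sham pool, did not. Hoxa5 shared with Cldn5 that the sham array stood apart, in the other direction. The summed signal of 12 pericyte and smooth muscle markers ran in the order of Cldn5, at 2521 in the hand acupuncture pool, 2676 in the TBI pool and 2912 in the sham pool. That order came from Tagln and Rgs5, which summed to 831.4, 907.9 and 1204 on the hand acupuncture, TBI and sham arrays, while the other 10 markers summed to 1690, 1768 and 1708. Of the 12 markers 8 lay below the floor, and 7 of these 8, among them Pdgfrb, the receptor that defines pericytes, were higher with TBI than with sham. The part of RNA quality and tissue makeup in the Cldn5 difference was not tested.

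Upstream sequence is shown for the 3 genes with 1 probe set that differed most between arrays, and for Slc2a1, which was nearly even. RefSeq promoters of the rat assembly GRCr8, running from 250 bases before the start of the gene to 50 after it, were found for 6 of the 10 genes: Cldn5, Emcn, Eng, Slc2a1, Flt1 and Kdr. The sequences are written 5′ to 3′ on the strand of the gene, from chr11:95718549-95718848 on the minus strand for Cldn5, and on the plus strand from chr2:228564289-228564588 for Emcn, chr3:36332029-36332328 for Eng and chr5:138002272-138002571 for Slc2a1. Capitals mark GGAA or its reverse complement TTCC, the core letters bound by ETS factors, which act in endothelial genes.
Cldn5: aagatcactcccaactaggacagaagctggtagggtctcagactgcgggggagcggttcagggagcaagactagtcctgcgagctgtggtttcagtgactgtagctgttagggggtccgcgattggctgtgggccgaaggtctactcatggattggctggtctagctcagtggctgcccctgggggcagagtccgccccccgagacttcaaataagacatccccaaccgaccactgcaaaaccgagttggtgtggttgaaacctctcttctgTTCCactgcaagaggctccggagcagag
Emcn: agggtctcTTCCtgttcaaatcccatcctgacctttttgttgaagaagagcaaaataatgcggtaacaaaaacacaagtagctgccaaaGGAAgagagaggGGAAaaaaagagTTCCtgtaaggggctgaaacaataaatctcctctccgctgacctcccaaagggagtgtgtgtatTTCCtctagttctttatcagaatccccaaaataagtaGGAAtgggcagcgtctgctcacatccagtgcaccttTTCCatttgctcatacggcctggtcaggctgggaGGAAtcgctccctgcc
Eng: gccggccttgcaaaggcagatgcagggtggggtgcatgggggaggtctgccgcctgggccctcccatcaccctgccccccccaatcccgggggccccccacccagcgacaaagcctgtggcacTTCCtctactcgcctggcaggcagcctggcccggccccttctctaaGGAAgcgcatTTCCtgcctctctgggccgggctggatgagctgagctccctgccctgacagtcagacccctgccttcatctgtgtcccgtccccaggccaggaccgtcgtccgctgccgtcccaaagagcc
Slc2a1: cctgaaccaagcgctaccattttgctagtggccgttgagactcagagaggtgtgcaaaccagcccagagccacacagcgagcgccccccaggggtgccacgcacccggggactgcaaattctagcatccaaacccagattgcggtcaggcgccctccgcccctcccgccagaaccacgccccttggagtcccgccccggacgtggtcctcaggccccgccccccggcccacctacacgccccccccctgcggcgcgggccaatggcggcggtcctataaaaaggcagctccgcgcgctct
The core occurred 1 time in the Cldn5 window, 8 times in that of Emcn, 3 times in that of Eng and 0 times in that of Slc2a1. Flt1 had 3 matches and Kdr 5. So short a string is common: 95.8% of 33469 promoters of this length hold at least 1, with a median of 3. Searched on both strands in the same way, ACGTG, the core letters of the hypoxia response element, was found only in Slc2a1 among the 6 (19.3% of all promoters hold it), and TATAAA in Slc2a1 and Flt1 (14.2%). GGGCGG, the letters of a GC box, was found in Slc2a1, Flt1, Cldn5 and Kdr (33.1%). Cldn5, Emcn and Eng therefore had no shared match among these strings other than GGAA, which most promoters hold; Cd93 was not searched.

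The gene of the glucose carrier was the steadiest of the 9. Slc2a1 (1370848_at) had a log2 signal of 11.29 in the hand acupuncture pool, 11.29 in the TBI pool and 11.24 in the sham pool. TBI minus sham was 0.05, with an SD of 0.15 among 1162 genes of like signal, and hand acupuncture minus TBI was −0.0006 with an SD of 0.12. All 3 arrays thus lay within 0.05 log2 units of each other. The gene is also made by other cells of the brain, such as astrocytes, 10 of whose markers were measured, all above the floor.

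The genes of endothelial surface proteins went different ways. Pecam1 (1371545_at), the adhesion molecule CD31, had a log2 signal of 8.02 in the hand acupuncture pool, 7.95 in the TBI pool and 7.99 in the sham pool. These values differed by at most 0.07, far less than the SD of 0.26 to 0.28 among genes of like signal. Emcn (1372587_at), which encodes the sialomucin endomucin of capillaries and veins, had 8.60, 8.09 and 8.43 on the hand acupuncture, TBI and sham arrays. Here the TBI array was the low one. Emcn was 1.26-fold lower on the TBI array than on the sham array (−0.34, SD of genes of like signal 0.25, with 15.2% of 2291 at least as far apart). Hand acupuncture minus TBI was 0.51, or 1.43-fold higher, where 3.71% of these genes were at least as far apart, and hand acupuncture minus sham was 0.18, where 43.6% were.

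Cd93 was the member furthest apart between any pair of arrays. It encodes a lectin-like membrane protein of endothelium that monocytes and platelets also carry. Its brighter probe set (1368393_at) had a log2 signal of 7.53 in the hand acupuncture pool, 8.43 in the TBI pool and 7.72 in the sham pool. The TBI array stood above both others, which lay 0.19 from each other. TBI minus sham was 0.72, or 1.64-fold higher, against an SD of 0.27 over 1876 genes of like signal, of which 1.71% were at least as far apart. Hand acupuncture minus TBI was −0.90, or 1.87-fold lower, where 0.480% were. These differences share the TBI array, and are not independent of each other. The second probe set (1387168_at), far below the floor, had 4.30, 5.26 and 4.07 on the hand acupuncture, TBI and sham arrays, values at background that are no check on it. Hbb, the beta chain of haemoglobin, was also highest there, at 13.39, 13.79 and 13.46 on the hand acupuncture, TBI and sham arrays, and made up nearly all of the summed signal of the 4 red cell markers measured of 6, which was 11010, 14525 and 11559. Alas2, an enzyme of red cell haem synthesis, had 7.84, 8.10 and 7.78. Slc4a1 and Ahsp were below the floor, Slc4a1 being highest on the TBI array and Ahsp on the sham array. The summed signal of 11 platelet and leukocyte markers, 6 of them below the floor, was 4284, 3954 and 3813 and did not have its peak on the TBI array. Lyz2, the brightest, gave 2068, 1835 and 1844 of it, so the sum says little of the platelet markers. Of the 11 markers 6 were highest in the hand acupuncture pool, 4 in the TBI pool and 1 in the sham pool. Within that list Pf4, the platelet chemokine, had 8.26, 8.41 and 7.89, while Itga2b and Gp9, which define platelets, and Cd3e, which defines T cells, lay below the floor. The part of blood left in vessels in the Cd93 difference was not tested.

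The co-receptor Eng (1372579_at), endoglin of the TGF-beta and BMP pathway, had a log2 signal of 7.24 in the hand acupuncture pool, 7.80 in the TBI pool and 7.73 in the sham pool. The hand acupuncture array was the low one, and its value lay under the floor. Hand acupuncture minus TBI was −0.55, or 1.47-fold lower, and hand acupuncture minus sham was −0.49, or 1.40-fold lower. Among 1192 genes of like signal 5.45% and 9.65% were at least as far apart, since values this close to the floor vary widely (SD 0.28 and 0.30). TBI minus sham was 0.07.

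The genes of the receptor kinases were even across the arrays. Tek (1393067_at), the receptor of angiopoietins, had a log2 signal of 8.98 in the hand acupuncture pool, 8.89 in the TBI pool and 9.03 in the sham pool. Flt1 (1377113_at), which encodes VEGFR1, a receptor that also binds VEGF away from VEGFR2, had 8.38, 8.22 and 8.41 in the same order. Kdr (1367948_a_at), which encodes VEGFR2, the main signalling receptor of VEGF, had 8.89, 8.91 and 9.07. All 3 were highest on the sham array. TBI minus sham was −0.14 for Tek, −0.19 for Flt1 and −0.16 for Kdr, each smaller than the SD of 0.22 to 0.25 among genes of like signal. Hand acupuncture minus TBI was 0.09, 0.16 and −0.02 for the same genes, against SDs of 0.20, 0.24 and 0.20. The order of the arrays within each of these genes is therefore not resolved.

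**Figure D2:**
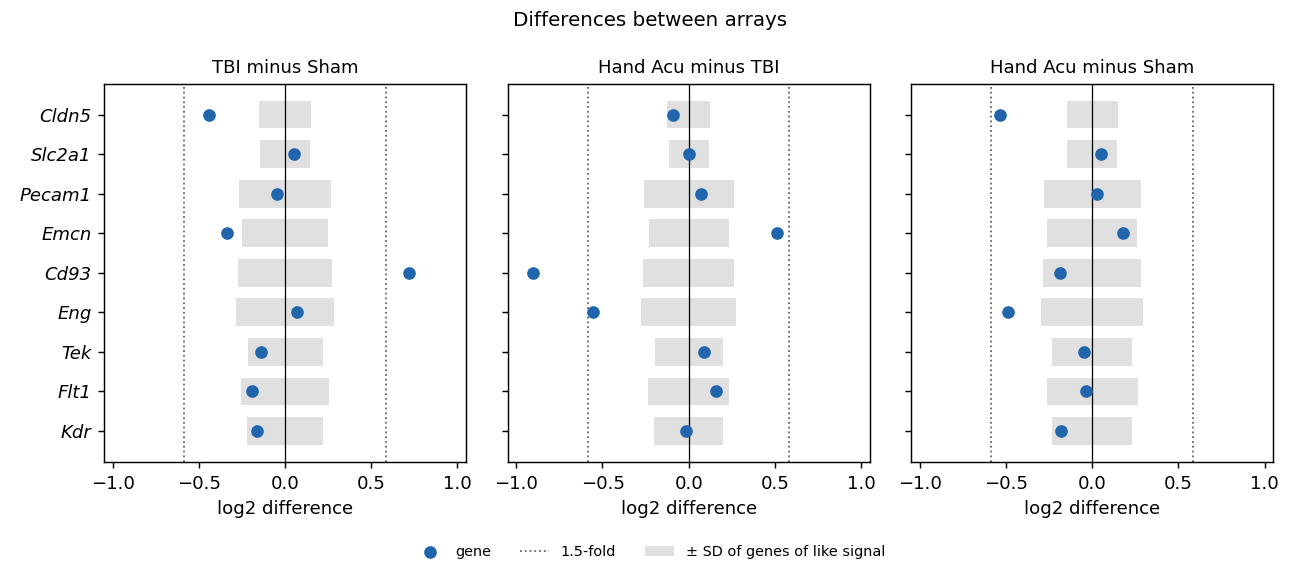
Log2 difference (x axis) of each gene (rows) for TBI minus sham, hand acupuncture minus TBI and hand acupuncture minus sham. Points are genes, grey bars are plus and minus 1 SD of the same difference over genes of like signal, and dotted lines mark 1.5-fold; only Cd93 lies past 1.5-fold, at 0.72 and −0.90, and Cldn5 lies at −0.44 and −0.54 in the comparisons with sham.

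The further probe sets of Flt1 and Kdr were no check on them either, because they lay below the floor. Flt1 had 2 other probe sets. In 1370492_a_at the log2 signal was 6.17, 6.27 and 6.51 on the hand acupuncture, TBI and sham arrays, with TBI minus sham at −0.24, the direction of the probe set used. In 1369087_at it was 6.00, 6.63 and 6.04, with TBI minus sham at 0.59, the opposite direction. The probe sets of Flt1 hence disagree on the TBI array. The other probe set of Kdr, 1397868_at, was at 4.02, 2.69 and 4.77, and its TBI minus sham of −2.08 is a difference between values at background. Where a gene had 2 or more probe sets above the floor, which held for 2073 genes, the SD of the disagreement between the brightest pair was 0.27 for TBI minus sham and 0.25 for hand acupuncture minus TBI.

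**Figure D3:**
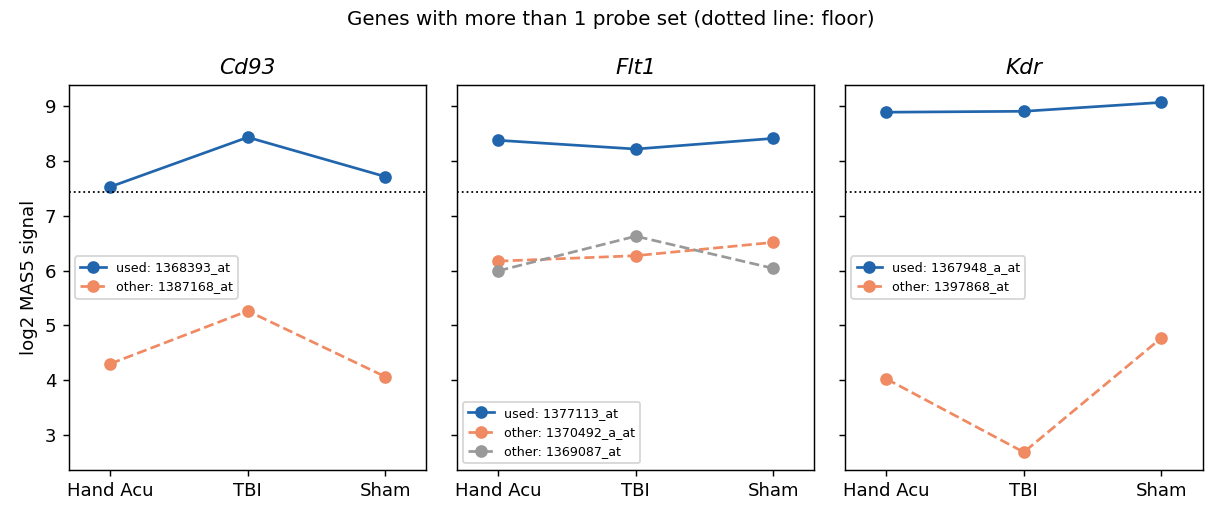
Log2 MAS5 signal (y axis) of every probe set of Cd93, Flt1 and Kdr on the hand acupuncture, TBI and sham arrays (x axis); solid lines are the probe sets used, dashed lines the others and the dotted line the floor of 7.44. The Cd93 probe set used peaks on the TBI array at 8.43, and every dashed line lies below the floor.

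TBI was set against sham to see what the injury model changes within 1 h. Of the 9 genes, Cd93 alone was at least 1.5-fold higher on the TBI array and 0 were at least 1.5-fold lower, beside 0.866% and 0.682% of all 9241 genes. By any amount, 6 genes (Cldn5, Emcn, Flt1, Kdr, Tek and Pecam1) were lower and 3 (Cd93, Eng and Slc2a1) higher, beside 49.0% of all genes lower. The median log2 difference was −0.14, and that of all genes was 0.0043. At a smaller threshold of 0.32 log2 units Cldn5 and Emcn were lower, beside 5.05% of all genes.

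Hand acupuncture was set against TBI, the series being about what acupuncture does to brainstem genes. Cd93 was at least 1.5-fold lower on the hand acupuncture array, beside 0.595% of all genes, and 0 of the 9 genes were 1.5-fold higher, beside 0.617%. Past 0.32 log2 units Eng was also lower (4.12% of all genes) and Emcn higher (4.04%). The median was −0.0006, with 4 genes higher and 5 lower, beside 50.7% of all genes lower and a median of −0.0024 over all genes. The comparison shares the TBI array with the one before it, so that Cd93 and Emcn, which stood apart on that array, appear in both with opposite signs.

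Hand acupuncture against sham left 0 of 9 genes at least 1.5-fold apart, beside 1.89% of all genes. Cldn5, at −0.54, and Eng, at −0.49, were lower by more than 0.32 log2 units, beside 5.46% of all genes, and the median was −0.05, with 6 genes lower by any amount (49.0% of all genes), against 0.0037 for all genes.

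**Figure D4:**
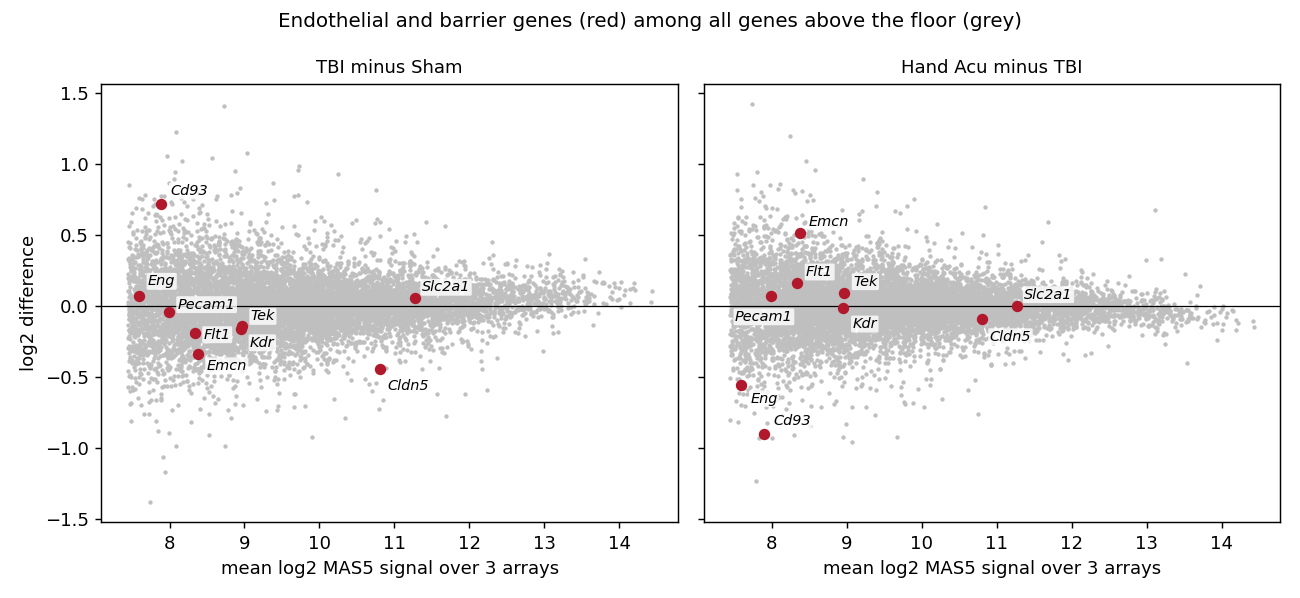
Log2 difference (y axis) against the mean log2 MAS5 signal over the 3 arrays (x axis) for the 9241 genes above the floor in grey and the 9 endothelial and barrier genes in red, for TBI minus sham on the left and hand acupuncture minus TBI on the right. The grey cloud narrows as signal grows, so that Cldn5 at −0.44 lies nearer its edge than Emcn at −0.34 does.

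Other genes of the barrier and the vessel wall were read from 14 lists. The lists of junctions, carriers, TGF-beta and BMP signalling and Wnt signalling had medians within 0.1 of 0 in TBI minus sham and in hand acupuncture minus TBI, and none of their genes above the floor was 1.5-fold apart in either. Of 9 junction genes above the floor, 5 had less signal with TBI than with sham, with a median of −0.02, which is near the 49.0% of all genes that were lower. Occludin, another sealing protein of tight junctions (Ocln), had a log2 signal of 8.80 in the hand acupuncture pool, 8.57 in the TBI pool and 8.91 in the sham pool, and Cldn12, a further claudin, had 10.14, 9.90 and 10.28. These 2 genes were lowest on the TBI array, at −0.34 and −0.38 from sham, whereas Cldn5 was not. Tjp1, the scaffold ZO-1, differed by −0.11, and Esam, an adhesion molecule of endothelial junctions that is also in the surface list, by 0.18.

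Of 13 carriers and receptors of the barrier above the floor, 9 had less signal with TBI than with sham, with a median of −0.08. Over all genes 49.0% were lower. Slc7a5, the carrier of large neutral amino acids, had 9.25, 8.97 and 9.37 on the hand acupuncture, TBI and sham arrays. Mfsd2a, which carries lysolipids and restrains vesicle traffic, had 8.85, 9.14 and 8.67. The pair went opposite ways, at −0.40 and 0.47 for TBI minus sham and 0.28 and −0.29 for hand acupuncture minus TBI. The efflux pump genes Abcb1a and Abcg2 differed by −0.03 and −0.18 for TBI minus sham, and Abcc4 by −0.21.

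Among partners of the VEGF and angiopoietin receptors, 6 of 13 genes were above the floor. Of these 6, 4 were higher on the TBI array than on the sham array, with a median of 0.13. Over all genes 4715 of 9241 were higher. Vegfa, the main ligand of Kdr, had a log2 signal of 10.09 in the hand acupuncture pool, 10.28 in the TBI pool and 10.26 in the sham pool. It thus differed by 0.01 for TBI minus sham and −0.18 for hand acupuncture minus TBI. Ptprb, the phosphatase that restrains Tek, had 10.12, 9.79 and 10.08. It was lowest on the TBI array, by −0.29 from sham, and 0.33 higher with hand acupuncture than with TBI. Nrp1, a co-receptor of VEGF, was 0.29 higher on the TBI array than on the sham array, and Nrp2 was 0.43 higher with hand acupuncture than with TBI. Angpt1, Angpt2, Tie1 and Flt4 were below the floor. In the TGF-beta and BMP list Id3, a target gene of the pathway, differed by −0.51 for TBI minus sham. Id1 and Smad7 of the same list, also above the floor, differed by only 0.0015 and −0.04. By any amount 5 of 7 genes were lower, beside 49.0% of all genes.

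Transcription factors and surface genes of endothelium had medians above 0 in TBI minus sham, where that of the 9 genes was below 0. Of 10 factors above the floor 6 were higher on the TBI array, beside 4715 of all 9241 genes, with a median of 0.14. Past 1.5-fold there were 0, beside 0.866% of all genes higher and 0.682% lower. Tal1, a factor of endothelial and blood cell formation, had a log2 signal of 8.87 in the hand acupuncture pool, 8.78 in the TBI pool and 8.34 in the sham pool. Sox17, a factor of arterial endothelium, had 8.77, 9.13 and 8.74, and so was high on the TBI array. Erg, which sustains the endothelial state, was below the floor in mean, and Fli1, a related ETS factor, differed by 0.14 for TBI minus sham.

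Of 12 surface, activation and coagulation genes above the floor, 10 were higher on the TBI array than on the sham array, beside 4715 of all 9241 genes. Their median was 0.12, and 0 were past 1.5-fold, beside 0.866% of all genes higher and 0.682% lower. Mcam, an adhesion molecule of vessels (CD146), had 8.73, 8.87 and 8.38 on the hand acupuncture, TBI and sham arrays, and Icam2, an adhesion molecule that leukocytes bind, had 8.51, 8.53 and 8.18. Both were lowest on the sham array. Vwf, the gene of von Willebrand factor, differed by 0.23 for TBI minus sham and −0.27 for hand acupuncture minus TBI, and Plvap, a protein of the fenestrated capillaries that lack a barrier, by 0.11 and −0.01. The inducible adhesion genes Sele, Selp and Icam1 lay below the floor, and Vcam1, above it, differed by 0.04 for TBI minus sham. In the Wnt list, whose pathway maintains the barrier, Fzd4, the receptor of norrin, differed by −0.57 for TBI minus sham and 0.12 for hand acupuncture minus TBI, its values on the TBI and hand acupuncture arrays lying under the floor, and Apcdd1, a target gene of the pathway, was 0.35 higher on the TBI array than on the sham array. The median of its 8 genes above the floor was −0.03.

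Around the endothelium, 9 basement membrane genes above the floor had a median of −0.03 for TBI minus sham and −0.02 for hand acupuncture minus TBI. Col4a2, a collagen IV chain, was the exception, at −1.38 and 1.42, with log2 signals of 8.23, 6.80 and 8.19 on the hand acupuncture, TBI and sham arrays from a single probe set. The TBI value, which both differences use, lay under the floor, so their exact size is uncertain. Its partner chain Col4a1 had 8.45, 8.46 and 8.15 in its brightest probe set, which did not share that dip. The other probe set of Col4a1, also above the floor, went the opposite way to the brightest in both comparisons. Whether Col4a1 dipped on the TBI array is therefore not settled. The 4 pericyte and smooth muscle genes above the floor all had less signal with TBI than with sham, with a median of −0.21. Over all genes 49.0% were lower. Abcc9 was 1 of the 4, at only −0.01, and its other probe set above the floor went the opposite way. As given above, 7 of the 8 markers below the floor were higher with TBI. Tagln, a protein of smooth muscle, was furthest of the 4 at −0.64 (8.22, 8.45 and 9.09 on the hand acupuncture, TBI and sham arrays). Rgs5, a pericyte gene, had 9.06, 9.12 and 9.37. These 2 genes and Cldn5 were highest on the sham array, whereas Myh11, the myosin of smooth muscle, had 8.46, 8.19 and 8.37 and did not share that order.

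**Figure D5:**
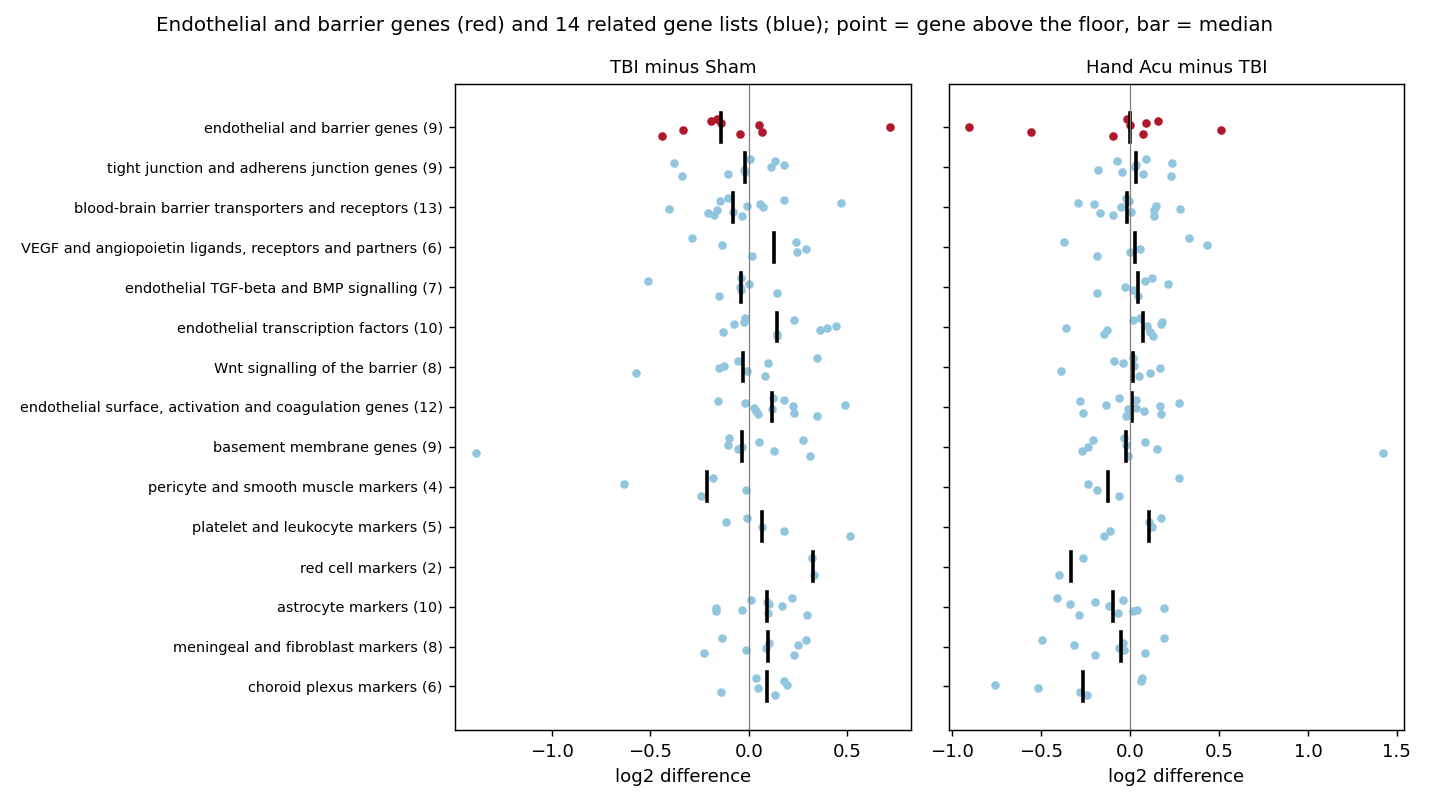
Log2 differences (x axis) of genes above the floor for the 9 endothelial and barrier genes in red and 14 related lists in blue (rows, with the number of genes), for TBI minus sham on the left and hand acupuncture minus TBI on the right; black bars are medians. The red points run from −0.44 to 0.72 on the left and from −0.90 to 0.51 on the right, and the farthest blue point in each panel is Col4a2.

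Summed signals of markers of other cells in the tissue also differed between the pools. The summed signal of 10 astrocyte markers was 67471 in the hand acupuncture pool, 72704 in the TBI pool and 68141 in the sham pool. Of the 10, 7 were higher on the TBI array than on the sham array, beside 4715 of all 9241 genes. The median of the 10 was 0.09 for TBI minus sham and −0.09 for hand acupuncture minus TBI, but only 0.02 and −0.03 after quantile normalization. The summed signal of 8 choroid plexus markers was 16527, 19724 and 18178 on the hand acupuncture, TBI and sham arrays, nearly all of it from Ttr, the transthyretin gene, at 14509, 17168 and 15656. Of these 8 markers 2 peaked in the hand acupuncture pool, 3 in the TBI pool and 3 in the sham pool. The floor lay above 2 of them. The summed signal of 8 meningeal and fibroblast markers, all above the floor, was 8655, 8573 and 8638, with its lowest value on the TBI array. That low came from Igf2, the brightest, at 3145, 2750 and 3019. The other 7 summed to 5509, 5823 and 5619, highest on the TBI array. The median of the 8 single markers was 0.10 for TBI minus sham. The part of tissue makeup in the differences of the 9 genes was not tested.

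Genes with the most similar course over the 3 arrays were sought for the 3 genes with the widest spread, as the smallest Euclidean distance between log2 values centred on each gene's mean, over 9241 genes and 3 arrays. For Cldn5 they were Crtc1 at a distance of 0.0042, Boc at 0.011 and Slc2a6 at 0.020. For Eng they were Ttc28 at 0.0049, Mast4 at 0.021 and Klhl26 at 0.025. For Cd93 they were Oxt at 0.11, Enpep at 0.17 and Mgst2 at 0.18. None of these is among the 10 genes, and Cd93 had no neighbour as near as those of Cldn5 and Eng. With 3 arrays, many genes of a large table share any given order.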

How the data were processed

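Total RNA of rat brainstem was extracted with Trizol and 6 µg was labelled with biotin, per the labels' protocols, and measured on 3 Affymetrix arrays. The submitters' processing notes name MAS5 without a version. The values the authors deposited are log2 signals, a scale inferred here: taken back to linear signal, each array's mean with 2% trimmed at each end was 500.0, the common target to which MAS5 scales. Because MAS5 subtracts mismatch probes, low values are erratic, and the number of arrays limits the precision.

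Of 31099 probe sets 57 were controls; of the others 20826 had 1 gene symbol in the platform annotation of 2016, 436 had several and 9780 had none. The 9 measured genes were found by identifier in RefSeq's table of GRCr8. The genes, the 14 lists, the naming rule and the alternatives were all chosen with earlier results of these data known, and the tissue check afterwards. Named genes are all 10 of the set, up to 3 with the largest difference per list in TBI minus sham and in hand acupuncture minus TBI, others needed to describe a list, and the 3 nearest courses. A gene was called when 1.5-fold apart. The scripts were tested on simulated data (Python 3.11.15, pandas 2.3.3, numpy 2.4.6, scipy 1.17.1, matplotlib 3.10.9). Alternatives were quantile normalization, centring, an offset of 50, other probe set rules, other floors and other thresholds.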

Additional observations from a re-analysis of the deposited data

How the results depend on the processing

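With 1 array per group no library could be left out. No paired analysis was possible because each group has 1 array and no result comes from a test. Under quantile normalization, centring on the median and an offset of 50, the numbers of genes at least 1.5-fold apart did not change and the medians moved by less than 0.05. Leaving out the floor could change nothing, because all 9 genes lay above it. Averaging a gene's probe sets gave a median of −0.046 for TBI minus sham, and 2 genes passed 1.5-fold in TBI minus sham and 2 in hand acupuncture minus TBI, as the background probe set of Kdr brought that gene to −1.12 and 0.66, and Flt1 turned to 0.05 and −0.19. With the second brightest probe set, which 3 genes have, the median of TBI minus sham was −0.24, that of hand acupuncture minus TBI −0.10 and that of hand acupuncture minus sham −0.34, with 2, 2 and 1 genes past 1.5-fold. A floor of 9.25 left Cldn5 and Slc2a1, with medians of −0.20 for TBI minus sham and −0.24 for hand acupuncture minus sham, and 0 genes past 1.5-fold in each comparison. At 0.32 log2 units 3, 3 and 2 genes passed in the order named above, and at 2-fold 0 did. Of the 27 differences of single genes, the direction of 1, Slc2a1 for hand acupuncture minus TBI (0.0073), changed under quantile normalization. Averaging could act only on Cd93, Flt1 and Kdr, which have more than 1 probe set, and turned 4 of their 9 differences. The second brightest probe set turned 3 of these 9. An offset cannot turn a direction, and centring moved each difference by 0.0053 or less, so their 0 changes are no check. Cldn5, Emcn and Eng have 1 probe set each. Both list directions named for TBI minus sham, of transcription factors and of surface genes, held under quantile normalization, at 0.15 and 0.13.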
